A study of Potamopyrgus antipodarum with 6 samples.

Results

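Short isolated stretches of methylated DNA coverage were examined in the foot of Potamopyrgus antipodarum, the mud snail of New Zealand. The joined reference of 739509 windows of 100 bp was split wherever 8 or more windows in a row had no count in any pool. A run between such gaps is called a stretch, and a short isolated stretch has 1 to 4 windows and at least 10 counts summed over the 6 pools. This rule gave 14672 of 43878 stretches (33.4%), which held 46452 windows and 16.2% of all counts. The members were thus chosen by their counts summed over the pools, their number of windows and the gaps beside them, and these measures are given as a description. The difference between the sites was not used.

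Wild asexual snails of 2 sites were compared. Lake snails came from Lake Lytle in Oregon, a site without current, and river snails from a site in Idaho that the labels give as a Snake River side channel at Ritter Island. Each group held 3 pools of 10 individuals, named lake pools 1, 2 and 3 and river pools 10, 11 and 12 after their sample names, and no age or genotype is given in the labels. All snails were kept at 14 degrees C for several days before the foot was dissected. With 1 lake and 1 river, habitat and region cannot be told apart.

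The cytosine of a CpG site can carry a methyl group, and in many invertebrates methylated CpG sites are sparse and lie mainly inside transcribed genes. Methylated DNA immunoprecipitation (MeDIP) pulls down single-stranded DNA fragments with an antibody against methylated cytosine. A MeDIP count therefore rises with the methylation, the number of CpG sites, the copy number and the mappability of a window, and gives no percentage of methylation. The reference consisted of assembled transcripts, so that a short stretch is a short piece of transcript sequence under which genomic fragments were found.

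The total count per pool ran from 2212650 in river pool 11 to 5013750 in lake pool 3. Lake pools 2 and 3 agreed within sampling noise, also over all windows of the series, with a chi-square of 0.805 per window. Over 20476 windows of short stretches with more than 10 counts in the pair, their chi-square was 0.717 per window, where counting noise alone gives 1. They were counted as 1 sample in each mean, so that n was 2 for the lake. The edgeR tests, however, treated the 3 lake pools as separate samples unless said otherwise. With lake pools 2 and 3 summed as 1 sample, the stretch test called the same 3 short stretches. Lake pools 1 and 2 had 0.974 in short stretches, but 1.08 over all windows, and were kept apart. River pool 12 stood apart from the other river pools, with a chi-square per window of 2.06 (river pool 10) and 3.35 (river pool 11). Its value was 1.14 when paired with lake pool 1. River pools 10 and 11 had 0.993 with each other in short stretches and 1.21 over all windows, and were also kept apart. The numbers called at an adjusted p are given with and without river pool 12. Values of single stretches without it are given only where this is said. Nothing in the labels says how the pools of a site were drawn beyond their being separate pools of snails, so that p-values measure the spread between these pools.

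On the joined reference, many short stretches were parted from their neighbours by short gaps only. In 7682 of the 14672 (52.4%) the gaps on both sides were 8 to 10 windows long, the most frequent length of a gap in the series (32993 of all gaps). In 4614 (31.4%) at least 1 gap reached 18 windows, and the longest gap was 117 windows. In 6505 cases 2 short stretches were next to each other. The study's supplementary tables name the contig of some regions, and 850 short stretches were overlapped by such a region. Each of the 850 was overlapped by regions of a single contig. In these supplementary tables, several pairs of regions on contigs of successive numbers are parted by exactly the same distance. This distance is about that of a gap of 8 to 10 windows. For the gaps beside short stretches, it was not tested whether they are the space between joined contigs. A stretch that is isolated on the joined reference therefore need not be isolated in the genome. The choice of a gap of 8 windows fell at a sharp step, since 3 gaps in the series were exactly 7 windows long and 1218 short stretches had a gap of exactly 8 windows on a side.

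The members were unequal in length and in counts. There were 235 stretches of 1 window, 3415 of 2 windows, 4701 of 3 windows and 6321 of 4 windows. The median of the counts summed over the pools was 20 in stretches of 1 window, 39 in those of 2 windows, 73 in those of 3 windows and 109 in those of 4 windows. Just outside the rule, stretches of 5 windows had a median of 177. The quartiles over all short stretches were 27, 75.5 and 245 summed counts, and the largest sum was 4758. Stretches of 4 windows held 53.9% of the counts of all short stretches, those of 3 windows 32.2%, those of 2 windows 13.7% and those of 1 window 0.220%. There were 353 stretches with exactly 10 summed counts, and 321 further stretches of 1 to 4 windows had 9 and were left out.

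The counts inside a stretch were heaped in its middle, and this is given as a description. By the rule, the outer windows are those that border the empty gaps. A lower share in them can follow from this choice, and the part it has in the profile was not tested. Of 4701 stretches of 3 windows, the middle window was the largest in 3790 (80.6%), and it held 57.7% of their counts, against 20.4% and 21.9% in the outer windows. In stretches of 4 windows the inner windows held 37.3% and 36.3% and the outer windows 13.7% and 12.8%. Stretches of 2 windows were split evenly, with 49.7% and 50.3%. The 6 pools had nearly the same profile. The middle window of 3 held from 57.3% of the counts in lake pool 3 to 58.6% in river pool 11. Few stretches had an empty window inside. The middle window was empty in 4 of the 4701 stretches of 3 windows, and the inner windows in 44 and 43 of the 6321 stretches of 4 windows. An interval for a sum of windows would be too narrow, since 1 read can fall in more than 1 window, so that no interval is given for a sum over the windows of a stretch.

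**Figure D1:**
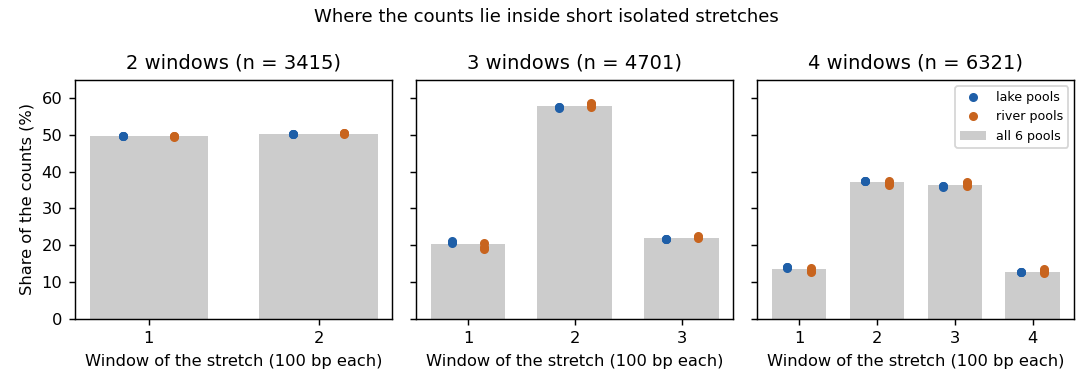
Share of the counts (%) by window of the stretch (x axis, windows of 100 bp in order) for stretches of 2, 3 and 4 windows, where bars give all 6 pools together and points single pools (lake blue, river orange). The middle window of 3 held 57.7% of the counts, and the points of the lake and river pools lie close together.

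Short stretches were spread unevenly along the joined reference, which was split into 10 sections of equal length. They made up 3.21% of the stretches with at least 10 counts in the first section (118 of them), 18.1% in section 3, 52.6% in section 5 and 67.6% in section 7 (2116 of them). The share was 30.3% in section 8 and 64.7% in section 10. The kind of short stretch also moved along the reference. Stretches of 1 or 2 windows were 9.60% of the short ones in section 4, 42.3% in section 7 and 8.79% in section 8. Short stretches whose largest window had more than 480 counts over the pools made up 5.05% in section 4, 12.2% in section 7 and 5.93% in section 8. The median log2 fold change, river against lake, was -0.10 in section 4, 0.30 in section 6, 0.31 in section 7 and 0.06 in section 8. Longer stretches had medians of -0.15, 0.15, 0.01 and -0.13 in the same sections. The part that the counts per window have in this difference was not tested.

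**Figure D2:**
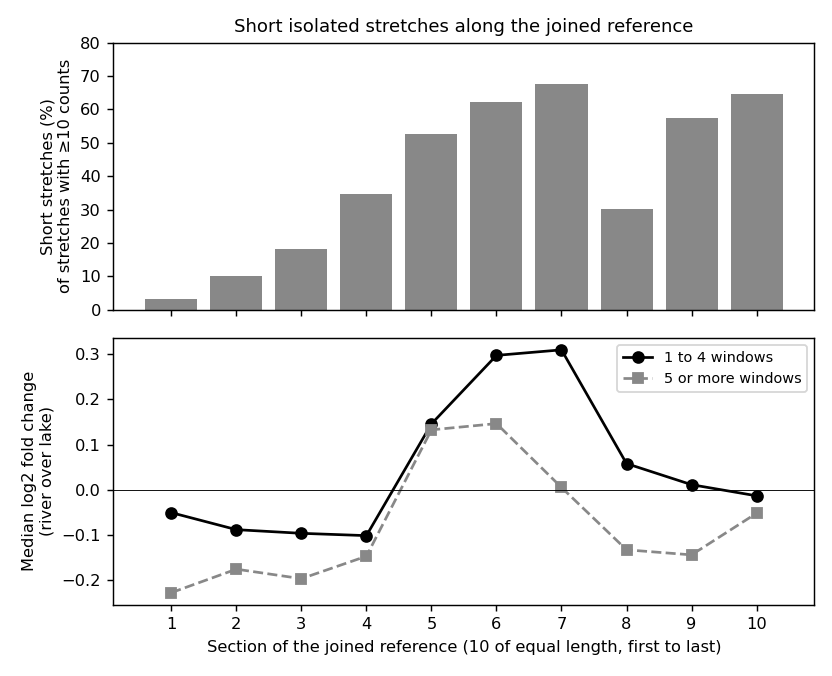
Upper panel, short stretches as a percentage of stretches with at least 10 counts in each of 10 equal sections of the joined reference (x axis), and lower panel, median log2 fold change (river against lake) for short (circles) and longer stretches (squares). The share peaks at 67.6% in section 7, where the median of short stretches is 0.31.

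The first comparison asked whether the pools of the 2 sites placed the same share of their counts in short stretches. The share was 16.1% in lake pool 1, 15.1% in lake pool 2 and 15.2% in lake pool 3. It was 17.8% in river pool 10, 19.2% in river pool 11 and 16.1% in river pool 12. The 95% exact binomial interval reached from 0.0315 percentage points to either side in lake pool 3 to 0.0520 in river pool 11. It covers counting error only, because PCR copies and reads that fall in more than 1 window are not independent. All river pools were above all lake pools, but the intervals of river pool 12 and lake pool 1 overlapped. The mean was 15.6% ± 0.643 for the lake (SD, n = 2) against 17.7% ± 1.53 for the river (SD, n = 3). With the 6 pools kept apart the difference was 2.21 percentage points, with an exact two-sided permutation p of 0.1, the smallest that 3 against 3 can give. With lake pools 2 and 3 as 1 sample the exact permutation p was 0.2. Total counts were lower in river pools 10 and 11 than in any lake pool. With each pool thinned to the total of the shallowest one, the difference was 2.20 percentage points.

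Most short stretches were found at both sites. All 6 pools had a count in 74.6% of them, against 92.6% of longer stretches. The share of short stretches with no count was 4.06%, 3.26% and 2.30% for lake pools 1, 2 and 3, against 9.11%, 15.5% and 4.06% for river pools 10, 11 and 12. Lake pool 1 and river pool 12 thus missed the same number of short stretches (596). The mean was 3.42% ± 0.906 for the lake (SD, n = 2) against 9.55% ± 5.72 for the river (SD, n = 3), a difference of 6.13 percentage points that was about as large as the SD of the river pools (exact permutation p of 0.3). Thinned to equal depth, the lake pools missed 7.76%, 7.67% and 6.66% and the river pools 10.6%, 15.5% and 7.48%. The difference over 6 pools was then 3.81 percentage points, not distinguishable from the spread between pools (exact permutation p of 0.3).

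Pools of 1 site were compared by the common coefficient of variation of edgeR over the summed counts of short stretches. It reached 10.6% for lake pools and 32.5% for river pools, where longer stretches had 10.99% and 28.0%. Without river pool 12 the river value was 15.4% in short stretches, and without lake pool 1 the lake value was 4.58%. The Spearman correlation of the counts over short stretches is given as a description, since the stretches share their libraries. It had a mean of 0.924 between lake pools, 0.852 between river pools and 0.855 for pairs across the sites. Over longer stretches it was 0.977, 0.928 and 0.929.

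The main comparison asked which short stretches differed between lake and river in the DNA that was precipitated. The edgeR quasi-likelihood test was run on all 37710 stretches with at least 10 summed counts, and p-values were adjusted over all of them by the method of Benjamini and Hochberg. It called 3 stretches at an adjusted p under 0.05, which is 0.00796% of those tested. All 3 were short stretches, and all 3 were higher in river. The count rested on river pool 12, without which 3237 short stretches were called, 2386 higher in river and 851 higher in lake. The share over all stretches is not given for fits without a pool, so that these counts do not set short stretches apart. Without river pool 11 there were 5 calls, and without river pool 10 there were 2. With all pools, the 3 called stretches also were the 3 short stretches with p under 1e-05, a limit passed by 0.0159% of all stretches. No short stretch was called higher in lake by this test, where 924 (6.30%) had an unadjusted p under 0.05, against 11.6% of all stretches. Higher in river, 2292 (15.6%) had one, against 12.6% of all. The edgeR exact test called 314 short stretches as higher in lake and 1202 as higher in river. The DESeq2 Wald test, with an adjusted p for 5197 short stretches, called 78 and 1278. Shares over all stretches are not given for these tests. At an unadjusted p under 0.001 there were 114 short stretches (0.777%), against 1.13% of all stretches. Of the 114, 79 were higher in river (0.538% of short stretches, against 0.506% of all). The other 35 were higher in lake (0.239%, against 0.623% of all).

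The stretch at 33289301 to 33289600 had the lowest p of all stretches. Its counts were 1, 4 and 1 for lake pools 1, 2 and 3, against 126, 68 and 156 for river pools 10, 11 and 12. Every river pool was far above every lake pool. The scaled counts (CPM, counts relative to the TMM-adjusted total of tested stretches) were 0.377 ± 0.197 for the lake (SD, n = 2) against 40.6 ± 7.25 for the river (SD, n = 3). The log2 fold change was 6.50 ± 0.43 (SE), and the adjusted p from edgeR was 4.43e-06. The counts lay in its first windows, with sums of 179 and 176, and the last window held a single count from river pool 10. The second window alone had lake counts of 1, 3 and 1 and river counts of 63, 37 and 71. Neither neighbouring stretch on the joined reference passed the test. Neighbours there may belong to different transcripts and need not lie close together in the genome. The next stretch to the left, after 24 empty windows, had lake counts of 3, 8 and 0 and river counts of 4, 6 and 2. The next to the right had 1, 10 and 8 and 2, 2 and 5. Their edgeR adjusted p was 0.599 and 0.832.

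The stretch at 73236001 to 73236400 was empty in all 3 lake pools, while 106, 43 and 155 counts came from river pools 10, 11 and 12. These river counts were 33.4 ± 8.94 CPM (SD, n = 3), and with the lake pools together set to a floor of 3 counts the river was at least 166-fold higher (edgeR adjusted p of 1.47e-05). Its counts formed a peak, with window sums of 6, 51, 197 and 50. The last window, at 73236301 to 73236400, had 18, 10 and 22 counts in the river pools, and the second, at 73236101, had 17, 3 and 31. Both passed the test per window (edgeR adjusted p of 6.98e-05 and 0.000586). The stretch after it on the joined reference, at 73237301 to 73237800, had counts at both sites. It had lake counts of 60, 55 and 60 and river counts of 53, 22 and 66 (log2 fold change of 0.39, edgeR adjusted p of 0.427).

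The stretch at 42442601 to 42442900 was smaller, with lake counts of 2, 1 and 1 and river counts of 30, 19 and 33. This was 0.337 ± 0.197 CPM for the lake (SD, n = 2) against 9.86 ± 2.12 for the river (SD, n = 3), with a log2 fold change of 4.97 ± 0.54 (SE, adjusted p of 0.00156, edgeR). Nearly all of it came from its middle window, which held 84 of 86 counts. Its outer windows held 1 count each. Its adjusted p was 0.0524 without river pool 10, so that this call was lost. The calls of the other 2 stretches held in each alternative that contained them.

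Further stretches were taken by p among those whose scaled counts did not overlap between the sites. The next higher in river were at 33643801 to 33644200 and 26188001 to 26188400, and neither passed the adjusted threshold. The first had lake counts of 9, 8 and 10 and river counts of 24, 21 and 27. Mean CPM were 1.95 ± 0.273 (lake, SD, n = 2) and 8.999 ± 2.70 (river, SD, n = 3), and the log2 fold change came to 2.19 ± 0.41 (SE, adjusted p of 0.0862, edgeR). The counts of the groups also did not overlap as deposited. The second was the dense one of the set, with lake counts of 299, 269 and 335 and river counts of 349, 252 and 457. As deposited these counts overlapped, and scaled they were 65.1 ± 8.65 CPM (SD, n = 2) and 126 ± 18.9 (SD, n = 3). The log2 fold change came to 0.99 ± 0.19 (SE, adjusted p of 0.0862, edgeR). It was also paired with 3 loci, given by LOC identifiers only, in the study's supplementary tables. Without river pool 12 the edgeR adjusted p was 0.000185 for the first stretch and 2.00e-05 for the second. With lake pools 2 and 3 summed as 1 sample it was 0.310 for both.

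Higher in lake, the lowest p among stretches without overlap was at 28770201 to 28770600. It had lake counts of 36, 53 and 65 and river counts of 5, 4 and 12. Mean CPM were 10.0 ± 2.09 (lake, SD, n = 2) and 2.29 ± 0.406 (river, SD, n = 3), and the log2 fold change came to -2.15 ± 0.37 (SE, adjusted p of 0.0862, edgeR). In its first window the lake counts were 6, 10 and 10, and the river pools had none. The second had 12, 20 and 22 counts against 0, 2 and 2, and both passed the test per window (edgeR adjusted p of 0.0391 and 0.0345). The third, with 14, 16 and 25 counts against 3, 2 and 7, and the last, with 4, 7 and 8 against 2, 0 and 3, did not (edgeR adjusted p of 0.0600 and 0.337). Whether the windows differed from each other was not tested.

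The other 4 stretches of lowest p higher in lake were also picked among those without overlap. Their edgeR adjusted p was 0.0862 as well. That at 68304201 to 68304600 had lake counts of 68, 95 and 81 and river counts of 15, 8 and 21 (log2 fold change of -1.76, standard error 0.31). That at 17224001 to 17224400 had 27, 39 and 31 against 3, 3 and 6 (-2.28, standard error 0.45). That at 33174101 to 33174500 had 51, 54 and 57 against 7, 4 and 19 (-1.77, standard error 0.35), with 119 of its 192 counts in 1 window. The largest was at 73134801 to 73135100, with 153, 189 and 202 counts against 41, 31 and 84 (-1.11, standard error 0.23). All 3 windows of it passed the test per window, with edgeR adjusted p-values of 0.0405 to 0.0484. In these stretches the lake pools held more counts as deposited and as scaled. The called stretches differed by larger folds than any of them.

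Some short stretches had counts at 1 site only. They reached the 10 summed counts of the rule through that site alone, so that their number and counts are a description. Of the 14672, 21 had no lake count and 94 had no river count, against 6 and 17 of the 23038 longer stretches. Most held few counts. The 94 found in lake only had a median of 12 summed counts and at most 32, and 74 of them had a count in all 3 lake pools. The 21 found in river only had a median of 13 summed counts, and 14 had a count in all 3 river pools. The stretch at 73236001 was the single one of these 115 that was called, and its 304 counts set it apart from the second largest, which had 32. In short stretches of 10 to 15 summed counts, 0.894% had no lake count and 4.35% no river count, against 0.455% and 2.50% of longer stretches with that sum. The lake pools together held 1.48 times the counts of the river pools, so that an empty river group was reached at a smaller difference than an empty lake group.

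Of the lake-only stretches, picked here with their values in view, the largest were at 36832001 to 36832200 and 24983601 to 24983900. The first had lake counts of 4, 8 and 20, and with the river pools together set to a floor of 3 counts the lake was at least 6.50-fold higher. The second had 9, 9 and 8 counts. The largest of the river-only stretches after 73236001 was at 48343301 to 48343500, with river counts of 9, 4 and 10 (at least 12.6-fold higher). None of these passed the test (edgeR adjusted p of 0.0862 in each).

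Scaled counts of short stretches did not overlap between the sites in 3540 cases (24.1%), against 27.2% of all stretches. They were higher in all river pools in 1946 (13.3%, against 11.4% of all) and higher in all lake pools in 1594 (10.9%, against 15.7% of all). The median log2 fold change was 0.09 over short stretches, -0.13 over longer ones and -0.05 over all. The sign of the short stretches' median depended on the scaling. With library size alone it was -0.08, but the median over all stretches was then -0.22, and short stretches lay 0.14 above it as they did with TMM. Fewer pools leave fewer values to overlap, and without river pool 12 and without lake pool 1 there were 7297 and 6007 cases. Scaling by library size also turned the split of the non-overlapping stretches to 1643 higher in river and 2083 higher in lake.

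The direction changed with the summed count. The median log2 fold change was 0.06 in short stretches of 10 to 15 counts, -0.13 at 61 to 120, 0.19 at 241 to 480 and 0.62 above 960. In longer stretches it was 0.30 at 10 to 15 counts, -0.34 at 481 to 960 and 0.22 above 960. In short stretches above 960 counts, 32.5% were higher in all river pools and 2.77% higher in all lake pools. At 121 to 240 counts these shares were 12.6% and 17.3%. The counts as deposited also differed in this way. River pool 11 held 29.6% of the counts of lake pool 3 in short stretches of 61 to 120 counts, 45.8% at 241 to 480 and 69.5% above 960. Over all tested stretches this value was 44.1%.

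**Figure D3:**
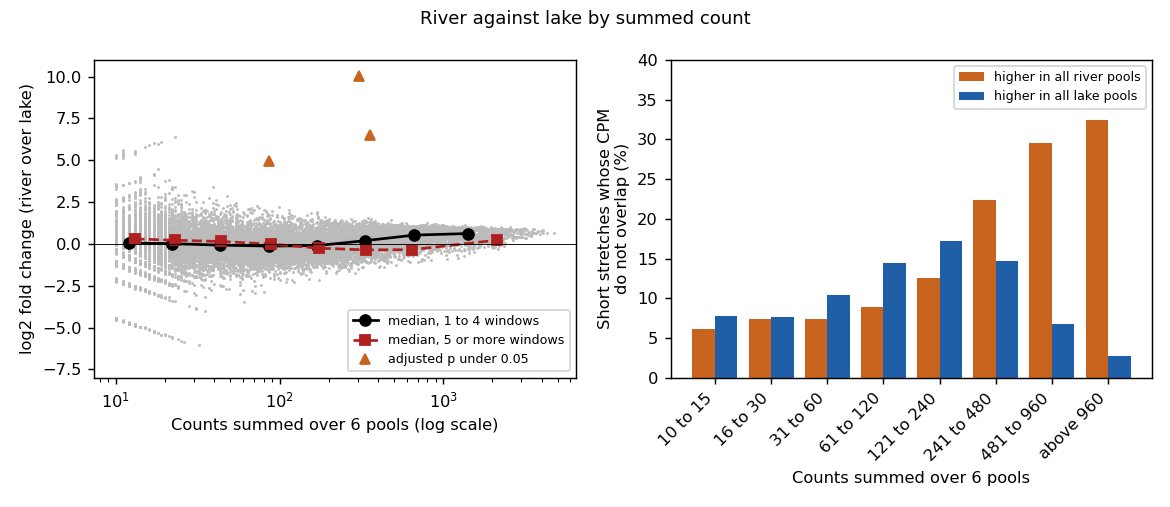
Left, log2 fold change (river against lake) by the counts summed over 6 pools (log axis) for each short stretch (grey), with medians of short (circles) and longer stretches (squares) and the 3 called stretches (triangles), where fitted values of stretches with no count at 1 site depend on the prior count, and right, percentage of short stretches whose CPM do not overlap between sites, by direction. Above 960 counts 32.5% were higher in all river pools and 2.77% higher in all lake pools.

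Some stretches with large sums had nearly the same deposited counts in all pools. The stretch at 44056401 to 44056700 had lake counts of 534, 536 and 533 and river counts of 533, 531 and 535, although the totals of the pools differed by up to 2.27 times. Its scaled counts were 116 ± 15.4 CPM for the lake (SD, n = 2) against 207 ± 84.7 for the river (SD, n = 3), or 0.87 ± 0.25 on the log2 scale (SE, adjusted p of 0.0862, edgeR). The stretch at 38079401 to 38079700, the largest of 3 windows, had 590, 589 and 584 counts and 584, 584 and 593. The largest of 2 windows, at 42779401 to 42779600, had 291, 285 and 290 counts and 291, 292 and 295. The largest stretch of a single window, at 40139101 to 40139200, had 42, 40 and 41 counts and 39, 35 and 42, while the next largest, at 43692601 and 43357301, ran from 22 to 34 and from 24 to 38. The largest of all, at 18700601 to 18701000, had 831, 831 and 856 counts and 723, 672 and 845, so that the shallow river pools were lower there. All 12 stretches with the largest sums of their length had a positive log2 fold change, from 0.65 to 1.11, and none passed the test with all pools. These values moved with the pools and the scaling but stayed positive, with 0.32 to 0.68 without river pool 11 and 0.26 to 1.37 with abundance-trended offsets. Their edgeR adjusted p moved as well. It was 2.00e-05 to 0.0130 without river pool 12, and 0.310 to 0.414 with lake pools 2 and 3 summed as 1 sample. That at 44056401 had 1603 counts over the lake pools and 1599 over the river pools before scaling, and that at 38079401 had 1763 and 1761.

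**Figure D4:**
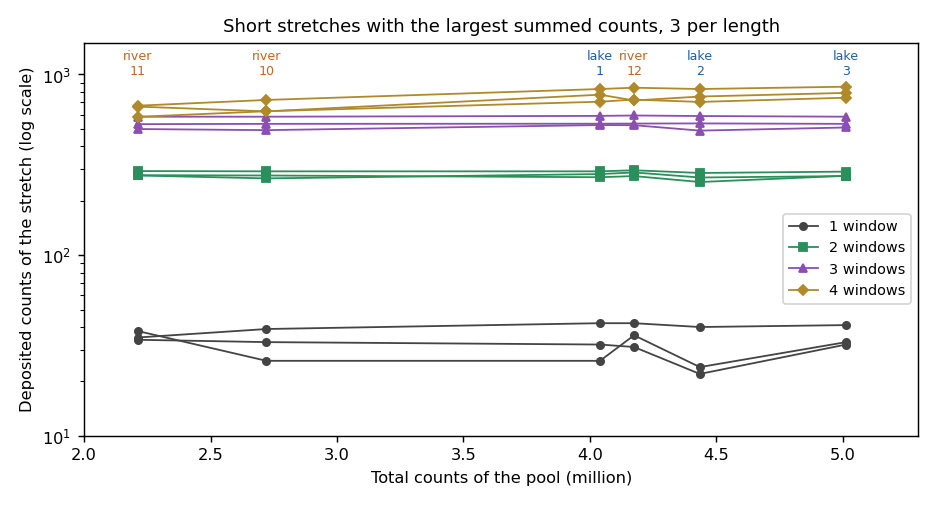
Deposited counts (y axis, log scale) of the 3 short stretches with the largest summed counts in each length (1 to 4 windows, 12 lines) against the total count of each pool (x axis). Lines are nearly flat for 2 and 3 windows, while the totals run from 2212650 to 5013750.

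Such near-equal counts were counted with a limit chosen after the values were seen. In 695 short stretches the highest pool had at most 1.25 times the counts of the lowest. They had a median of 951 summed counts and no fewer than 88. They made up 33.7% of short stretches above 960 counts, against 5.61% of longer stretches above 960. By length there were 1 of 1 window, 263 of 2 windows, 283 of 3 windows and 148 of 4 windows. Their median log2 fold change was 0.88. Scaled counts of 201 of the 695 were higher in all river pools, and none was higher in all lake pools. Of short stretches above 960 counts, 32.5% were higher in all river pools and 2.77% in all lake pools. Over all stretches these shares were 11.4% and 15.7%. No window of the series exceeded 300 counts in a pool, and each pool reached this number in at least 1 window of a short stretch. How reads at the same position were treated in counting is not given in the sources used here. For equal deposited counts the log2 fold change is set by the scaling alone. The part of these near-equal counts in the direction of the short stretches was not tested.

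Stretches of 1 to 4 windows differed among themselves in this respect. The median log2 fold change was 0.13 with 1 window, 0.24 with 2 windows, 0.12 with 3 windows and -0.01 with 4 windows, against -0.07 in stretches of 5 windows. Of the 114 stretches with p under 0.001, there were 15 higher in river and 1 higher in lake among those of 2 windows, 34 and 11 among those of 3 windows and 30 and 23 among those of 4 windows. None of 1 window had a p under 0.001.

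The test per window, the unit of the study, gave more calls. Of 30156 tested windows in short stretches, 474 (1.57%) passed an adjusted p of 0.05 in the edgeR quasi-likelihood test, against 1.09% of all 146394 tested windows. At an unadjusted p under 0.001 there were 917 windows (3.04%, against 1.92% of all), 820 of them higher in river (2.72%, against 1.22%) and 97 higher in lake (0.322%, against 0.707%). Among the calls there were 422 higher in river (1.40%, against 0.669% of all) and 52 higher in lake (0.172%, against 0.419% of all). These calls lay in 363 stretches. There were 263 stretches with 1 called window, 90 with 2 and 9 with 3, and 1 stretch had 4. No stretch had called windows in both directions. The called windows higher in river had a median of 289 summed counts and a median log2 fold change of 1.11, and those higher in lake a median of 118 and -1.59. All 422 windows higher in river also had more deposited counts in the river pools together than in the lake pools together. With lake pools 2 and 3 merged into 1 sample, 7 of the 474 windows kept their call. Without lake pool 2, 6 kept it, and the number was also 6 without lake pool 3 and without river pool 10. Of the 148 windows called without lake pool 1 and the 143 called without river pool 11, 120 and 110 were among the 474. Without river pool 12, 6332 windows of short stretches were called and 471 of the 474 were among them. Shares over all windows are not given for these fits.

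Gene names were known for few members. The study searched the sequence of its differential regions against a nucleotide database, and 14 short stretches were overlapped by a region it paired with a gene, 9 of them with a named gene. The study chose these regions on p-values, those of 7 of the 9 stretches on these same samples, so that their differences are no independent evidence. None of the 9 was called here with all pools, with edgeR adjusted p-values of 0.0862 to 0.752. Without river pool 12 some passed, such as that paired with ATG3 (edgeR adjusted p of 0.00225), while that paired with FAM160A1 did not (0.194). With lake pools 2 and 3 summed as 1 sample, that paired with ATG3 had an edgeR adjusted p of 0.310. The names come from matches in other species.

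The stretch paired with ATG3, a conjugating enzyme of autophagy in yeast and mammals, lay at 58576601 to 58577000. It had lake counts of 52, 76 and 87 and river counts of 7, 14 and 36. Mean CPM were 14.2 ± 2.53 (lake, SD, n = 2) and 6.20 ± 3.03 (river, SD, n = 3), and the log2 fold change came to -1.23 ± 0.36 (SE, adjusted p of 0.0862, edgeR). The stretch paired with RPL7A, a protein of the large ribosomal subunit, lay at 62912901 to 62913200 and had 31, 25 and 30 counts against 5, 5 and 10 (log2 fold change of -1.38, edgeR adjusted p of 0.0863). That paired with TM9SF4, a member of a family of proteins with many membrane-spanning segments, lay at 21985301 to 21985700. It had 90, 96 and 141 counts against 26, 28 and 75 (log2 fold change of -0.65, edgeR adjusted p of 0.160). The stretch paired with plcg2, a phospholipase C that acts in signalling downstream of receptors in vertebrates, lay at 53903101 to 53903500 and had 87, 93 and 121 counts against 23, 12 and 82 (-0.78, edgeR adjusted p of 0.161, and -1.39 without river pool 12). Scaled counts of these 4 stretches did not overlap between the sites, as was the case in 24.1% of short and 27.2% of all stretches.

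The stretch paired with LDAH, a hydrolase associated with lipid droplets in mammals, lay at 70371401 to 70371700 and pointed the other way. It had lake counts of 15, 21 and 28 and river counts of 43, 7 and 77. River pool 11 was below all lake pools as deposited, and the scaled counts of the sites overlapped (log2 fold change of 1.59, standard error 0.43, edgeR adjusted p of 0.0862). That paired with RPL23AP84, a human ribosomal protein pseudogene, had counts that overlapped between the sites as deposited and as scaled, with 83, 65 and 74 against 73, 58 and 80 (log2 fold change of 0.72). The same stretch was also paired with Gm32856, RNU6-744P and D616_p158002, so that the pairing names no single gene. The stretch paired with FAM160A1 had 45, 58 and 82 counts against 15, 21 and 66 (log2 fold change of -0.20). Its direction was not stable, with 0.10 without river pool 10, 0.03 with abundance-trended offsets and -0.61 without river pool 12. The names of the last 2 entries, NUO5 and AP152, were taken from page images and may be misread. Their log2 fold changes were -1.14 and -1.61, the latter -2.90 without river pool 12. Scaled counts of both did not overlap between the sites. Of the 9, 7 were lower in river in their fitted value, and 6 of these kept this direction in every alternative that contained them.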

How the data were processed

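The authors mapped reads with Bowtie2 to a transcriptome reference whose contigs were joined into 1 sequence, and counted them in 100 bp windows with MEDIPS. FastQC, Trimmomatic, SAMtools and edgeR are also named in the submitters' notes, without versions. The DNA had been sonicated with a 300 bp program. The deposited counts per window are not normalised. The deposited RPKM values are these counts times 1 constant per pool and gave 1472631 to 3339737 reads per pool. Columns with the authors' own fold changes and p-values were not used. Positions are on the joined sequence, counted from 1, and contig sequences and CpG counts were not used here.

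Counts were summed per stretch and tested with edgeR 4.0.16 (limma 3.58.1, R 4.3.3): TMM scaling, robust quasi-likelihood F test, two-sided, no covariate, at least 10 summed counts, river over lake. Single values per pool were compared by exact permutation tests. Alternatives were DESeq2 1.42.0, other scalings, filters and gaps, and leaving out pools. The test was tested on simulated data with the same spread in all pools, which held no pool that stands apart. The members and lists were chosen with earlier results of these data known. Named stretches are those called, the 5 of lowest p in each direction without overlap between sites, the 3 of largest sum per length, and those paired with a named gene.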

Additional observations from a re-analysis of the deposited data

How the results depend on the processing

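No paired analysis was possible because lake pools carry the numbers 1 to 3 and river pools 10 to 12. Against 3 called stretches, abundance-trended offsets gave 57, no low-count filter 1240, the edgeR exact test 1516, the DESeq2 Wald test 1356 and, as an alternative chosen after seeing the data, leaving out stretches with a window of 150 or more counts 655. The 3 calls were among each of these, except that DESeq2 gave no adjusted p for the stretch at 42442601. At p under 1e-05 these counts were 6 without a filter, 25 with the exact test and 7 with the Wald test. A gap of 11 windows joined stretches parted by 8 to 10 empty windows, left 1302 short stretches, 297 of them without overlap between the sites, and gave 0 calls at either threshold. At p under 0.05 the main test had 3216 short stretches. A minimum of 60 counts left 8169 short stretches and a median log2 fold change of 0.18. The median log2 fold change was -0.0803 with library size alone. Above the median of all stretches, the short ones lay by 0.10 to 0.23 in the settings other than a gap of 11. Called windows numbered 2202 with DESeq2 size factors, 4 with a minimum of 60 counts and 2832 without a filter. They numbered 3051 with the exact test, 2049 with the Wald test and 7 with lake pools 2 and 3 summed. All these calls are of short stretches or their windows. No share over all stretches or windows is given for these alternatives or for fits without a pool. The counts therefore do not set short stretches apart from longer ones.

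Leaving out 1 pool at a time gave 2 to 3237 called stretches, 3 to 834 at p under 1e-05, 4287 to 7297 stretches without overlap (also chosen after seeing the data) and 6 to 6332 called windows. The high values came without river pool 12 (3237 stretches, 2386 higher in river), and without river pool 11 there were 5. Without lake pool 1, 6007 stretches had no overlap. The share of counts differed by 1.47 to 3.00 percentage points and the share without a count by 3.38 to 9.08. The median ran from 0.06 to 0.11. All 10 stretches of lowest p without overlap kept their direction in every alternative that contained them. The cause of these changes was not tested. Of stretches with 10 to 15 summed counts, 10.1% had a count in all 6 pools, which so low a sum limits by itself.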
